A study of Cavia porcellus with 238 samples.

Results

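The thyroid (Thy) of guinea pig (GP) breeders was compared between the sexes, from the raw RNA-seq counts of 5 female breeders (BF) and 6 male breeders (BM). These 11 libraries were chosen by their labels alone, among 238 guinea pig libraries in all. All animals were of the strain HsdDhl:DH, and the labels give no allele and no agent. Breeders had been housed as pairs of opposite sex, and the females had raised litters before tissue was taken. The study set its breeders beside female non-breeders (NF) and male non-breeders (NM), kept in same-sex pairs, to ask how sex and reproduction shape expression in each organ. The thyroids of 6 NF and 5 NM were fitted together with those of the breeders, so that 22 libraries shared 1 estimate of the spread. Each breeder library came from a different animal, aged 0.95 to 0.97 years, except that males BM 20 and BM 22 were 0.74 years old. Of the non-breeders fitted, NM 18 was 0.74 years old and the others 0.95 to 0.97. A thyroid of female breeder 12 was not analysed here.

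The thyroid is built of follicles, spheres of epithelial cells around a store of thyroglobulin. Follicular cells take up iodide from the blood through the symporter SLC5A5, pass it to the lumen, and bind it to tyrosines of thyroglobulin (TG). Binding needs hydrogen peroxide, which the dual oxidases DUOX1 and DUOX2 make once their maturation factors DUOXA1 and DUOXA2 have brought them to the apical membrane. Thyrotropin from the pituitary, through its receptor TSHR and cyclic AMP, drives these steps, and the transcription factors NKX2-1, PAX8, FOXE1 and HHEX keep the cells thyroid. Parathyroid glands, which secrete parathyroid hormone (PTH), and the calcitonin-producing C cells lie on or in the gland and can be taken with it.

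The libraries differed in more than sex. TG, the defining product of the tissue, was abundant in all 11 (38852 to 131433 CPM, each count divided by the library's TMM-adjusted total), as the label says. Total counts were 11902191 to 15133258 in BF and 16218903 to 19161648 in BM. These depths did not overlap (exact permutation test, two-sided p = 0.00216, the smallest that 462 arrangements can give). Reads were 50 nt long in BF 01, BF 02 and BF 05 and 51 nt long in BF 14, BF 15 and all BM, so reads of 50 nt occurred in 1 sex only among the breeders. PTH was at 17453 CPM in BF 05, 9689 in BM 21 and 5938 in BM 24, and at 2.21 to 6.99 CPM in the other 8 breeders. GCM2, a transcription factor that defines parathyroid cells, had 399.6, 89.8 and 70.7 CPM in the same 3 libraries and at most 0.148 CPM in the others. Both parathyroid genes were thus high in 1 of 5 BF and in 2 of 6 BM. The skeletal muscle actin ACTA1 was at 25.7, 21.8 and 21.5 CPM in the 3 BF libraries of 50 nt, at 2.73 and 1.89 CPM in the other BF, and at 2.14 to 8.6 CPM in BM. Muscle transcripts therefore varied with read length among the females. In bulk RNA, fewer cells of a type and less RNA per cell cannot be told apart.

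Of 13520 genes tested with edgeR's quasi-likelihood F test, 1521 (11.2%) were differentially expressed genes (DEGs), with a Benjamini-Hochberg false discovery rate (FDR) below 0.01. In BF, 687 DEGs (5.08% of genes tested) were higher and 834 (6.17%) lower than in BM. The median log2 fold change (BF over BM) was 0.64 for higher and -0.93 for lower DEGs, beside 0.02 over all genes tested. Changes of at least 2-fold were found for 73 higher and 359 lower DEGs, and the other 1089 changed by less. No overlap between the 5 BF and the 6 BM was seen in 625 DEGs, 353 higher and 272 lower, while 910 of all genes tested (6.73%) did not overlap. In the plot of fold change against FDR the lower DEGs spread wider than the higher ones.

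**Figure D1:**
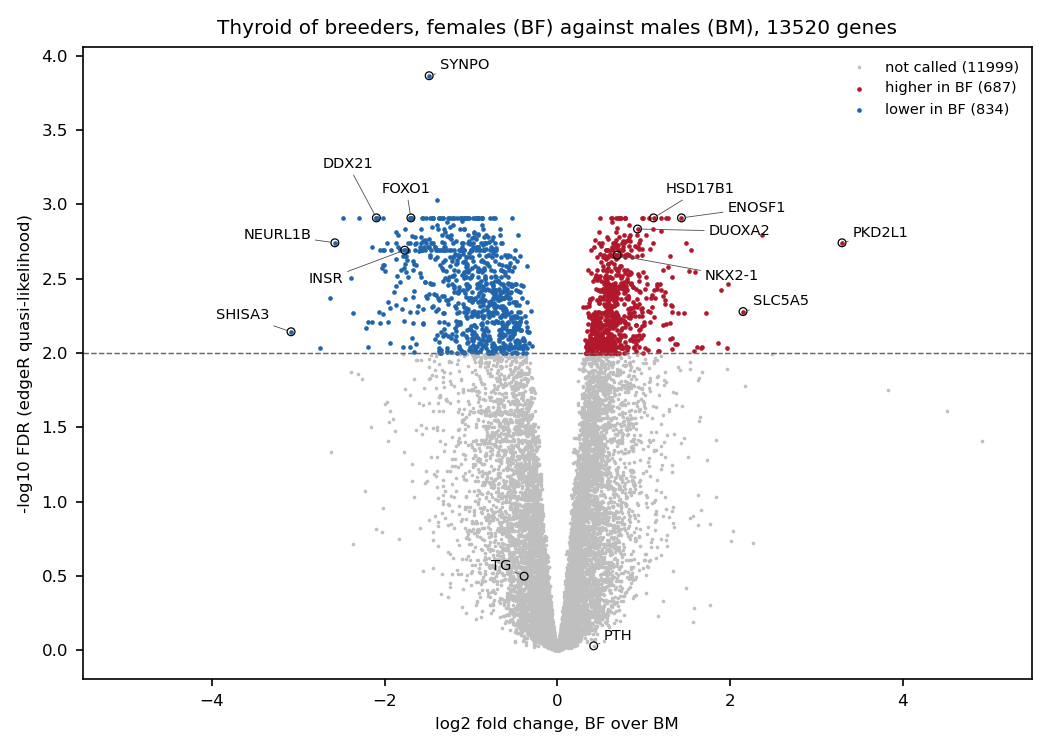
Log2 fold change of thyroid expression, BF over BM (x axis), against the -log10 of the FDR (y axis) for each of 13520 genes, with higher DEGs in red and lower DEGs in blue. Of the DEGs, 687 lie to the right and 834 to the left, and 73 on the right and 359 on the left lie at or beyond a 2-fold change.

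The number of calls moved with single libraries. Leaving out single breeder libraries gave 365 DEGs (without BF 02) to 2229 (without BM 16), and 325 of the 1521 DEGs were called in each of these 11 fits. With read length as a covariate (1 NF library also had reads of 50 nt), 2 genes were called, SYNPO lower and SHF higher, and without the libraries of 50 nt 0 were called by edgeR (3947 genes at p below 0.05, smallest FDR 0.0234). Without the 2 males of 0.74 years 4 genes were called, PCP4 higher and PLXNA2, SYNPO and TSHZ2 lower. With all libraries thinned to the lowest total count there were 1423 DEGs. At an FDR below 0.05, however, 1922 of 13520 genes (14.2%) passed with the covariate, 1211 of the 1521 DEGs among them, and 1334 DEGs passed without the younger males. DEGs given below with the value of each female were, unless stated, called in all 11 fits without 1 breeder library, and had an FDR below 0.05 with the read length covariate and without the younger males. DEGs given by a log2 fold change alone lost their call in at least 1 of the 11 fits, most often without BF 02 or BF 15, unless stated. Counts of most lists are therefore given with their range over these fits. They are to be read beside the 5.08% higher and 6.17% lower DEGs over all genes tested. Values of BM are the lowest, the median and the highest.

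**Figure D2:**
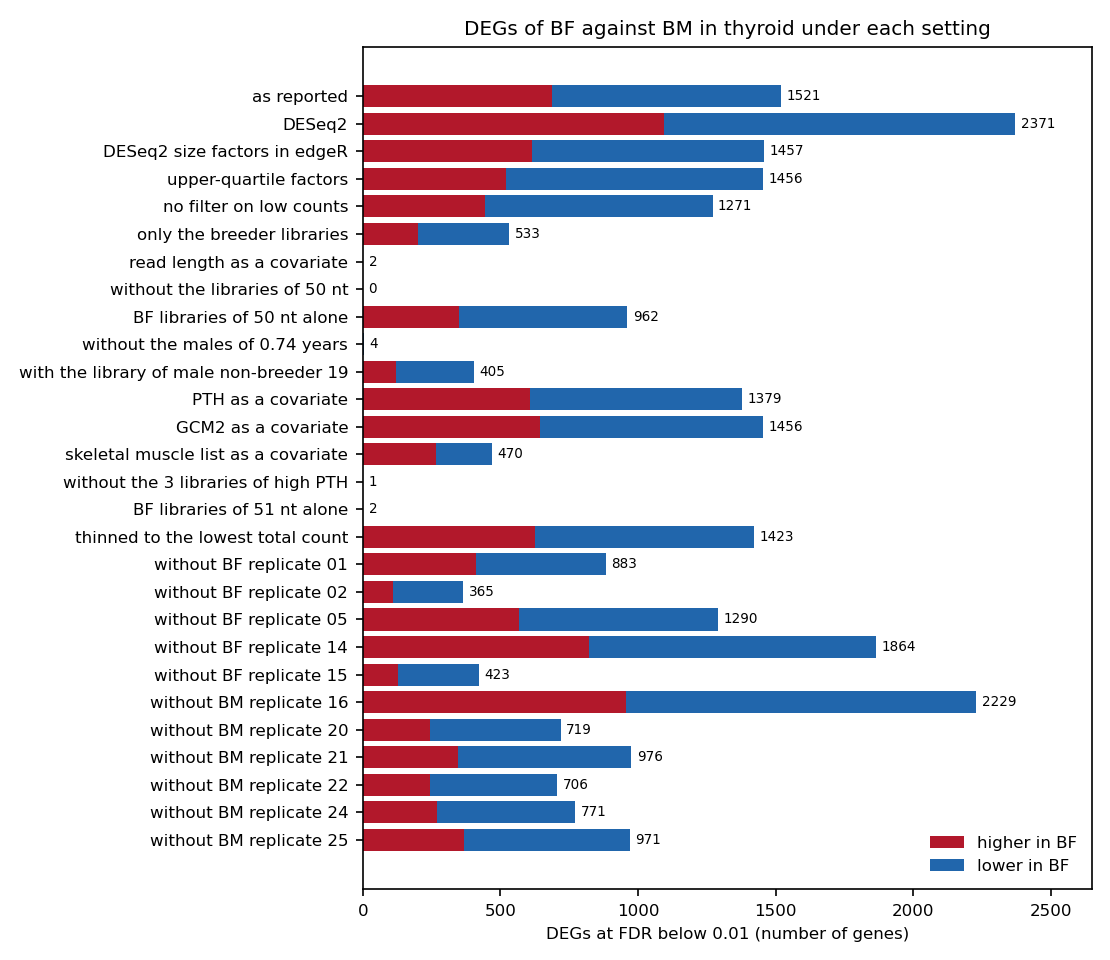
Number of DEGs in the thyroid of breeders (x axis, FDR below 0.01) under each setting of the fit and without each library (y axis), with genes higher in BF in red and lower in BF in blue. Counts ran between 0 without the libraries of 50 nt and 2371 with DESeq2.

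SLC5A5, DUOXA2 and DUOX2, which serve iodide uptake and hydrogen peroxide supply, were higher in BF. SLC5A5 reached 724, 681, 527, 886 and 1736 CPM in BF, against 46.5, 207 and 386 CPM in BM. All BF lay above all BM, BF 15 farthest. The means were 911 ± 479 CPM in BF and 205 ± 125 CPM in BM (SD, n = 5 and 6), a 4.45-fold difference (log2 2.15, SE 0.50, FDR 0.00525). This call was lost without BF 02, BF 15, BM 24 or BM 25 (FDR 0.0120 to 0.0227). DUOXA2 had 342, 360, 232, 282 and 351 CPM in BF, against 115, 156 and 222 CPM in BM, again with no overlap. It was 1.91-fold higher in BF (313 ± 54.7 CPM in BF and 164 ± 37.1 CPM in BM, SD, n = 5 and 6, log2 0.93, SE 0.16, FDR 0.00146). Its partner enzyme DUOX2 had 115, 153, 116, 136 and 210 CPM in BF, against 66.4, 86.2 and 108 CPM in BM. The groups did not overlap here either, and the difference was 1.66-fold (log2 0.73, SE 0.19, FDR 0.00929). DUOX2 was close to the threshold, and among the 11 fits without 1 breeder library it was called only without BF 05 or BM 16 (the other FDRs were 0.0105 or more, up to 0.0511).

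The gene of thyroglobulin did not pass the test. TG had 75006, 62730, 38852, 89155 and 50236 CPM in BF, against 51729, 70966 and 131433 CPM in BM (log2 -0.38, SE 0.28, FDR 0.317). The sexes overlapped, and the highest TG values belonged to the males of 0.74 years, with 131433 CPM in BM 20 and 112357 CPM in BM 22. The receptor TSHR was narrow in BF, at 158, 152, 153, 138 and 156 CPM, against 148, 173 and 414 CPM in BM (log2 -0.55, SE 0.21, FDR 0.0516). DUOX1 (log2 0.34, FDR 0.0767) and DUOXA1 (log2 0.37, FDR 0.0299) missed the threshold with values above 0. The deiodinase DIO1, which converts thyroxine to its active form, had a log2 fold change of 0.27 (SE 0.31, FDR 0.546).

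One gene of the synthesis list fell. ANO1, a chloride channel that also carries iodide at the apical membrane, had 12.4, 14.6, 12.3, 29.2 and 16.9 CPM in BF, against 23.7, 40.4 and 47.8 CPM in BM. Only BF 14 reached into the range of the males. The change was -1.16 on the log2 scale (SE 0.23, FDR 0.00235), and its FDR was 0.0107 without BF 02. Of 17 tested genes of thyroid hormone synthesis, 3 rose and 1 fell, with a median log2 fold change of -0.02 beside 0.02 over all genes. Without 1 breeder library, 1 to 3 rose and 0 or 1 fell. The other apical iodide transporter, SLC26A4, stayed under the filter on low counts, at 0 to 1.23 CPM.

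Among 6 tested thyroid transcription factors, NKX2-1 rose and GLIS3 fell (0 to 2 higher and 0 or 1 lower without 1 breeder library). NKX2-1, which binds the promoter of TG, had 395, 415, 345, 284 and 391 CPM in BF, against 196, 231 and 258 CPM in BM. No BF value lay within the BM range, and NKX2-1 was 1.62-fold higher (log2 0.69, SE 0.14, FDR 0.00219), with an FDR of 0.0110 without BF 02. GLIS3, a zinc finger factor needed for thyroid hormone synthesis in mouse, had 3.39, 4.57, 6.06, 11.5 and 3.24 CPM in BF, against 6.47, 22.3 and 51.3 CPM in BM (log2 -2.07, SE 0.49, FDR 0.00532). BF 14 alone lay above the lowest male, and the call was lost without BF 01, BF 02, BF 05, BF 15, BM 20, BM 22 or BM 24 (FDR 0.01001 to 0.0198). PAX8 averaged 560 ± 231 CPM in BF and 561 ± 160 CPM in BM (log2 0.00, SE 0.29, FDR 0.998). HHEX was not called (log2 0.54, SE 0.16, FDR 0.0178). Downstream of TSHR, 2 of 18 tested genes of cyclic AMP signalling fell and 0 rose (median -0.41, with 1 to 4 lower without 1 breeder library), beside 6.17% lower DEGs over all genes, so that the count was close to the background. PRKAR2A, a regulatory subunit of protein kinase A, was at 14.6, 15.6, 19.9, 18.9 and 15.3 CPM in BF, against 18.9, 29.5 and 40.6 CPM in BM (log2 -0.86, SE 0.16, FDR 0.00188), with an overlap at the lowest male only. Adenylate cyclase ADCY9 was the other (log2 -0.50), a call that held in 2 of the 11 fits without 1 breeder library.

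**Figure D3:**
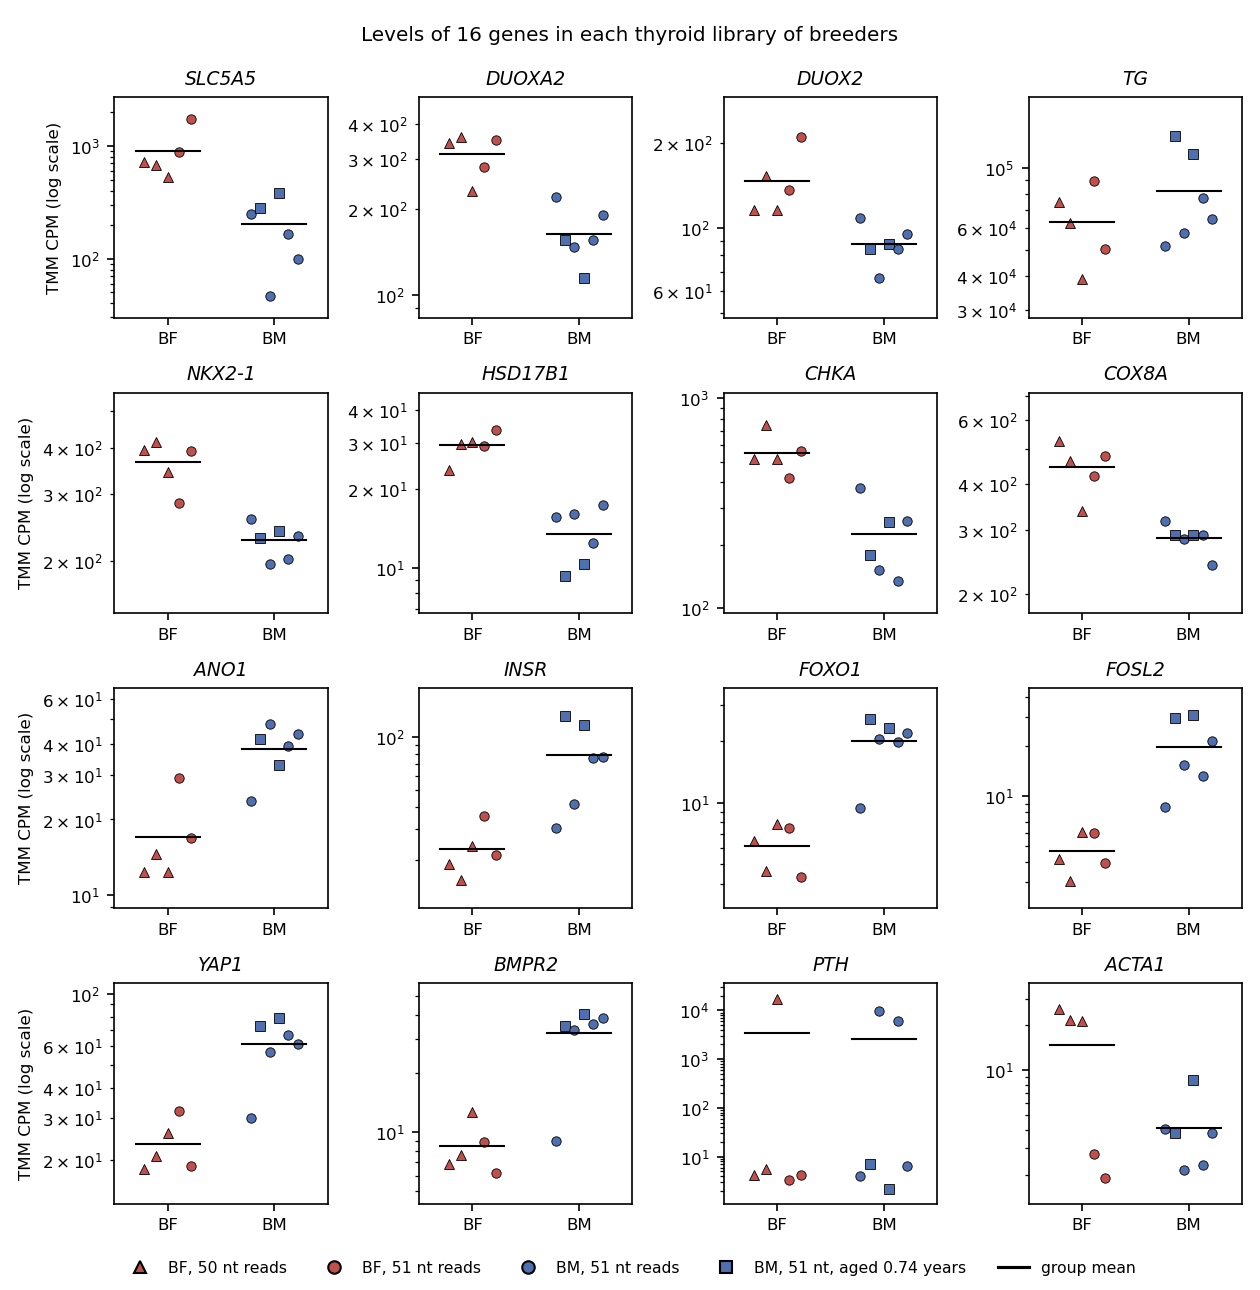
TMM CPM of 16 genes (log y axis) in each thyroid library, BF left of BM, with the read length of the BF libraries marked and a bar at the group mean. SLC5A5 lies at 527 to 1736 CPM in BF and 46.5 to 386 CPM in BM, and FOSL2 at 3.05 to 6.06 CPM in BF and 8.63 to 30.8 CPM in BM.

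Part of the nuclear-encoded subunits of the respiratory chain were higher in BF, and none of those tested was called lower. Of 37 tested subunits of complex I, which passes electrons of NADH to ubiquinone, 18 rose and 0 fell (median log2 0.47). Without 1 breeder library, 2 (BF 02) to 22 (BM 16) of them were called. Complex IV, cytochrome c oxidase, had 7 of 11 higher (median 0.58, with 1 to 7 called without 1 breeder library), and ATP synthase 7 of 15 (median 0.45, 1 to 8), both with the fewest calls without BF 02 and with 0 lower. Complex III had 3 of 8 higher (median 0.27) and 0 to 3 without 1 breeder library. For comparison, 5.08% of all genes tested were higher DEGs. Complex II, whose subunits also belong to the tricarboxylic acid cycle, had 0 of 4 called (median 0.16). The tricarboxylic acid cycle and fatty acid oxidation had 0 of 18 genes each called (medians 0.05 and 0.01). Changes were small in size, between 0.42 and 0.84 log2 units for the called genes of complex I, and between 0.52 and 0.74 for those of complex IV.

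COX8A, a small subunit of cytochrome c oxidase, had 527, 464, 339, 421 and 478 CPM in BF, against 239, 290 and 317 CPM in BM. Every BF exceeded every BM, and the difference was 1.56-fold (446 ± 70.8 CPM in BF and 285 ± 25.3 CPM in BM, SD, n = 5 and 6, log2 0.64, SE 0.13, FDR 0.00203). NDUFB2, an accessory subunit of complex I, was at 82.8, 99.4, 62.0, 61.3 and 80.0 CPM in BF, against 33.0, 43.6 and 50.5 CPM in BM (log2 0.84, SE 0.15, FDR 0.00177), without overlap. ATP5G1, which codes for a subunit of the proton-carrying c ring of ATP synthase, was at 120, 116, 74.8, 85.7 and 116 CPM in BF, against 51.2, 60.7 and 69.7 CPM in BM (log2 0.77, SE 0.14, FDR 0.00161). It too had all BF above all BM. These 3 genes held in every leave-one-out fit. The other called subunits, such as COX5B (log2 0.58), NDUFS7 (0.58), NDUFA7 (0.72) and UQCR11 (0.67), held in fewer. The medians of complex I, complex IV and ATP synthase were 0.55, 0.61 and 0.43 in the 50 nt females over BM, and 0.42, 0.54 and 0.36 in the 51 nt females over the same BM. With read length as a covariate, 8 of 37 in complex I, 6 of 11 in complex IV and 3 of 15 in ATP synthase were higher at an FDR below 0.05. Over all genes tested, 14.2% had an FDR below 0.05 in that fit, in either direction.

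Of 75 tested genes of the mitochondrial ribosome 10 rose and 2 fell (median 0.25, with 0 to 13 higher without 1 breeder library), with MRPL4 (log2 0.89) and MRPS6 (0.47) higher and MRPS35 (-0.74) lower. In the cytosolic ribosome 1 of 79 genes was called, RPL27 (log2 0.61, with 0 to 2 genes higher without 1 breeder library), and 64 of 79 had values above 0 (median 0.17). The proteasome, which degrades tagged proteins, had 3 of 40 higher (median 0.13, with 0 to 5 higher without 1 breeder library). Over all genes tested 5.08% were higher DEGs, so that the proteasome count was close to the background. Genes of the mitochondrial genome were not analysed here.

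Some genes of the splicing machinery were also higher. Counts of the lists that follow stand beside 5.08% higher DEGs over all genes tested. LSM and SNRP proteins form the rings that hold spliceosomal RNAs, and their list was composed after the values were seen. Of 23 tested 7 rose and 0 fell (median 0.42, with 1, without BF 15, to 11 higher without 1 breeder library). LSM5 had 28.7, 31.4, 23.1, 19.3 and 24.3 CPM in BF, against 12.5, 15.9 and 18.3 CPM in BM (log2 0.71, SE 0.14, FDR 0.00203), with all BF above all BM. In a broader list of 41 splicing factors 8 rose and 1 fell (median 0.39, with 1 to 14 higher without 1 breeder library). The DEGs SNRPB and SNRPF are in both lists, so the counts are not separate. Among those that rose were the regulators TRA2A (log2 0.62), SRSF6 (0.82) and CLK4 (0.95), of which SRSF6 and CLK4 held in 4 and 3 of the 11 fits without 1 breeder library. SON, a large scaffold of nuclear speckles, was the gene that fell, at 111, 105, 137, 127 and 81.3 CPM in BF, against 138, 245 and 286 CPM in BM. Its difference was -1.08 on the log2 scale (SE 0.19, FDR 0.00145), with the lowest male just above the highest female. RNA polymerase II and Mediator had 7 of 26 genes higher and 1 lower (median 0.18, with 2 to 8 higher without 1 breeder library). TCEB2, elongin B, led them at 247, 272, 164, 182 and 256 CPM in BF, against 115, 124 and 156 CPM in BM (log2 0.79, SE 0.15, FDR 0.00177), and its groups did not overlap.

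Of 34 regulators of chromatin tested, 11 fell and 0 rose (median -0.35), beside 6.17% lower DEGs over all genes. Without 1 breeder library, 2 (without BF 02) to 16 (without BM 16) fell. BPTF, the largest subunit of the remodeller NURF, had 13.6, 15.2, 17.4, 21.1 and 10.3 CPM in BF, against 20.2, 43.0 and 48.2 CPM in BM (log2 -1.36, SE 0.27, FDR 0.00203). BF 14 and BM 16 met in this gene. The acetyltransferase CREBBP (log2 -1.68, FDR 0.00238, 0.01001 without BF 02), EP400 (-0.89) and the SWI/SNF subunit ARID1A (-0.86) fell as well. BM 16 stood apart from the other BM in CREBBP (8.46 CPM against 25.7 to 29.5) and ARID1A (47.0 CPM against 72.3 to 87.0), toward the females. Over all 1521 DEGs, BM 16 was the male nearest to the females in 1168 (76.8%), and BF 14 was the female nearest to the males in 786 (51.7%). The part of transcript length and of RNA quality in the differences between the sexes was not tested.

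A list of UTP, NOP, NOL, RRP and POLR1 genes was composed by symbol after the values were seen. It had 6 of 36 lower and 1 higher (median -0.13, with 2 to 7 lower without 1 breeder library). Over all genes tested, 6.17% were lower DEGs. NOL8 fell by 0.78 on the log2 scale (FDR 0.00123) and POLR1B, a catalytic subunit of RNA polymerase I, by 0.79 (FDR 0.00179), both with no overlap between the sexes and called in all 11 fits without 1 breeder library. DDX21, a helicase that couples RNA polymerase I transcription to rRNA processing, was at 5.86, 5.16, 7.39, 7.90 and 6.69 CPM in BF, against 9.65, 26.3 and 44.5 CPM in BM (log2 -2.10, SE 0.32, FDR 0.00123). The females were tightly grouped below the lowest male. Nucleoporins, also listed after the values were seen, had 5 of 20 lower and 0 higher (median -0.12, with 1 to 6 lower without 1 breeder library). Among them was NUP205, of the pore's inner ring. It was at 13.8, 14.6, 16, 18.4 and 12.6 CPM in BF, against 17.5, 29.4 and 36.2 CPM in BM (log2 -0.94, SE 0.18, FDR 0.00193).

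**Figure D4:**
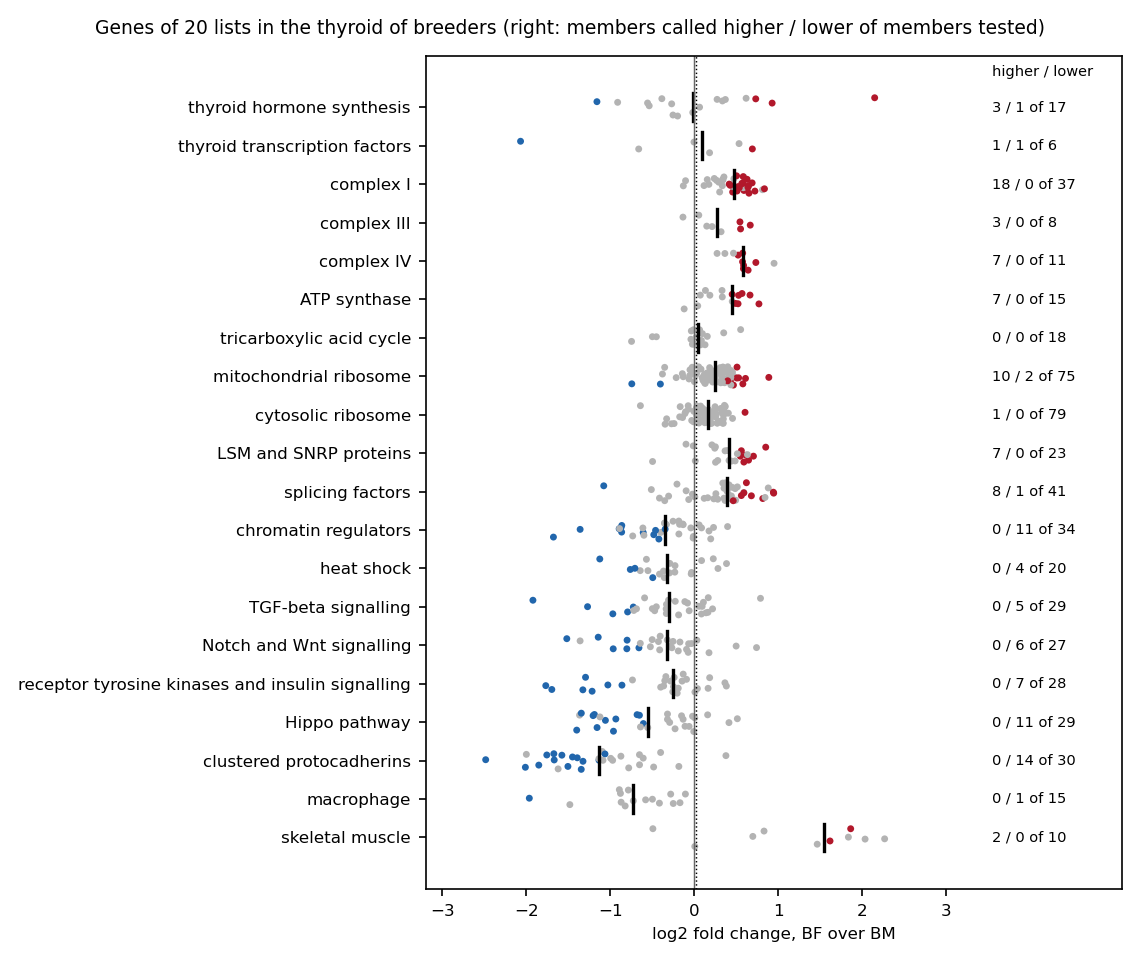
Log2 fold change, BF over BM (x axis), of each tested gene of 20 lists (y axis), with higher DEGs in red, lower DEGs in blue, genes not called in grey, a black bar at the list's median and a dotted line at the median of all genes. Complex I has 18 higher and 0 lower of 37, and the clustered protocadherins 0 higher and 14 lower of 30.

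INSR, FOXO1 and 5 other genes of growth factor signalling were lower in BF. Of 28 tested genes of receptor tyrosine kinases and insulin signalling, 7 fell and 0 rose (median -0.25), and 2 (without BF 02 or BF 15) to 10 (without BF 14) fell without 1 breeder library. The share of lower DEGs over all genes tested was 6.17%. The list's median was -0.34 in the 50 nt females over BM, -0.12 in the 51 nt females over BM, and -0.15 with the read length covariate. The insulin receptor INSR had 19, 15.5, 24.1, 35.6 and 21.6 CPM in BF, against 30.6, 76.9 and 131 CPM in BM. Only BF 14 lay within the range of the males, and INSR was 3.40-fold lower (23.2 ± 7.64 CPM in BF and 79.0 ± 39.7 CPM in BM, SD, n = 5 and 6, log2 -1.77, SE 0.35, FDR 0.00203). FOXO1, a transcription factor that insulin excludes from the nucleus, was at 6.48, 4.66, 7.87, 7.53 and 4.32 CPM in BF, against 9.37, 21.2 and 25.5 CPM in BM (log2 -1.70, SE 0.25, FDR 0.00123). The groups did not overlap. IGF1R (log2 -1.33) and EGFR (-1.29) fell too, and both lost their calls without BF 02 or BF 15 (FDR 0.0103 to 0.0121).

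In the TGF-beta list 5 of 29 genes fell and 0 rose (median -0.30, with 2 to 5 lower without 1 breeder library). As a background, 6.17% of all genes tested were lower DEGs. BMPR2, the type II receptor of bone morphogenetic proteins, had 6.86, 7.62, 12.7, 8.93 and 6.15 CPM in BF, against 8.97, 35.5 and 40.4 CPM in BM (log2 -1.92, SE 0.37, FDR 0.00203). BM 16, at 8.97 CPM, lay among the females, and the other 5 males at 33.3 CPM or more. TGFBR2 was at 212, 164, 198, 244 and 193 CPM in BF, against 230, 397 and 521 CPM in BM (log2 -0.97, SE 0.18, FDR 0.00165), with BF 14 above the lowest male. Of 27 Notch and Wnt genes 6 fell and 0 rose (median -0.32, with 1 to 7 lower without 1 breeder library). MAML1, a coactivator of Notch, had 4.55, 2.96, 4.01, 7.90 and 3.04 CPM in BF, against 8.46, 13.3 and 15.8 CPM in BM (log2 -1.52, SE 0.25, FDR 0.00123), without overlap.

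In the Hippo pathway, the kinases STK3 and STK4 hold the coactivator YAP1 out of the nucleus. Its list was composed after the values were seen, so its counts are a description. Of 29 tested genes 11 were lower and 0 higher (median -0.55), beside 6.17% lower DEGs over all genes. Without 1 breeder library, 3 (without BF 02 or BF 15) to 14 (without BM 16) were lower. YAP1 was at 18.3, 20.8, 26.0, 32.1 and 18.8 CPM in BF, against 29.99, 64.1 and 78.9 CPM in BM (log2 -1.40, SE 0.24, FDR 0.00137). AMOTL1, an angiomotin that binds YAP1, was at 17.0, 16.6, 16.8, 26.8 and 18.8 CPM in BF, against 25.7, 51.8 and 58.7 CPM in BM (log2 -1.34, SE 0.23, FDR 0.00123). In both genes BF 14 and BM 16 met and the other libraries were apart. Members of opposite role fell alike, since the kinase STK4 (log2 -1.20) and MOB1A (-1.16), a cofactor of the LATS kinases that it activates, were lower as well as the coactivators YAP1 and WWTR1 (-0.65).

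Among 30 AP-1 and immediate early genes 3 fell and 0 rose (median -0.10, with 1 to 4 lower without 1 breeder library), not far from the 6.17% lower over all genes, and the median was -0.44 in the 50 nt females over BM and 0.11 in the 51 nt females over BM. FOSL2, a Fos-family partner of Jun proteins, had 4.16, 3.05, 6.06, 5.98 and 3.92 CPM in BF, against 8.63, 18.4 and 30.8 CPM in BM. No female reached the lowest male, and FOSL2 was 4.28-fold lower (log2 -2.10, SE 0.35, FDR 0.00123). Heat shock genes had 4 of 20 lower and 0 higher (median -0.32, with 1 to 4 lower without 1 breeder library). The co-chaperone DNAJA1 was at 15.1, 9.82, 12, 12.8 and 11.6 CPM in BF, against 15.8, 19.6 and 26.7 CPM in BM (log2 -0.76, SE 0.15, FDR 0.00203), and HSP90AA1 fell by 0.71 (log2), a call that 9 of 11 fits without 1 breeder library kept. NCOA3, a coactivator of nuclear receptors, had 4.78, 5.84, 7.79, 6.05 and 6.35 CPM in BF, against 9.37, 21.8 and 24.5 CPM in BM (log2 -1.71, SE 0.26, FDR 0.00123), with no overlap.

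**Figure D5:**
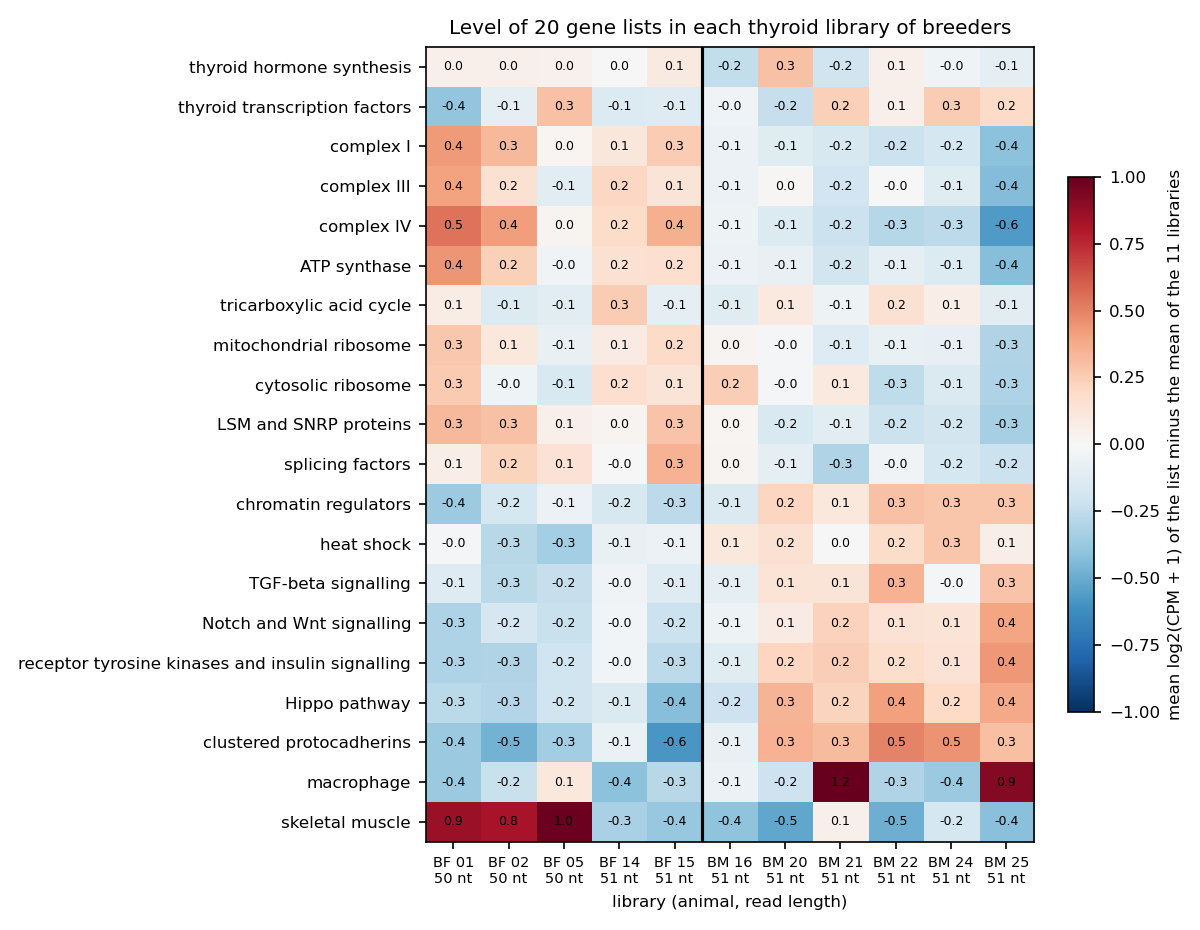
Heat map of 20 gene lists (down) in each of the 11 breeder libraries (across, BF left of BM, with read length), where colour and number give the mean log2(CPM + 1) of the list's genes minus the mean of the 11 libraries. The skeletal muscle list stands at 0.8 to 1.0 in the 3 BF of 50 nt, the macrophage list at 1.2 and 0.9 in BM 21 and BM 25, and the Hippo list is below 0 in all BF and in BM 16.

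Choline and ethanolamine kinases were among the larger increases. CHKA and CHKB start the synthesis of phosphatidylcholine and phosphatidylethanolamine. CHKA had 512, 751, 515, 418 and 560 CPM in BF, against 135, 219 and 375 CPM in BM (log2 1.28, SE 0.26, FDR 0.00262), without overlap and with an FDR of 0.0122 without BF 02. CHKB was at 114, 195, 186, 160 and 235 CPM in BF, against 61.5, 72.5 and 126 CPM in BM (log2 1.11, SE 0.21, FDR 0.00181), where BF 01 fell below the highest male. The next enzymes went in opposite directions. PCYT2, of the ethanolamine branch, rose by 0.70 (log2, SE 0.14, FDR 0.00227, 0.0109 without BF 15), and PCYT1A, of the choline branch, was at 19.7, 16.1, 18.6, 32.0 and 21.5 CPM in BF, against 29.8, 45.4 and 55.0 CPM in BM (log2 -1.04, SE 0.16, FDR 0.00123). The other 9 of 13 tested genes of this group were not called (median of the group -0.14). This group, too, was composed after the values were seen.

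HSD17B1, which reduces estrone to estradiol, was higher in BF. It had 23.7, 29.9, 30.3, 29.3 and 33.7 CPM in BF, against 9.34, 14 and 17.4 CPM in BM. All BF lay above all BM, and the difference was 2.17-fold (29.4 ± 3.59 CPM in BF and 13.6 ± 3.31 CPM in BM, SD, n = 5 and 6, log2 1.12, SE 0.17, FDR 0.00123). Of the 23 tested genes of sex steroid synthesis and receptors, the other DEG was the mineralocorticoid receptor NR3C2 (log2 -1.56), kept in 4 of 11 fits without 1 breeder library. In cholesterol synthesis 2 of 24 rose, LSS and TM7SF2 (log2 0.49 and 0.80), with calls that 4 and 1 of those 11 fits kept. This count was not far from the 5.08% higher DEGs over all genes. PLK1, a mitotic kinase, was the 1 DEG of 26 cell division genes (log2 0.95, called in 4 of the 11 fits), and the list's median was 0.39.

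The largest increase with a mean of at least 1 CPM and no overlap was that of PKD2L1, a cation channel of the polycystin family. It was at 4.93, 8.97, 3.30, 16 and 6.28 CPM in BF, against 0.403, 0.782 and 1.28 CPM in BM (log2 3.30, SE 0.61, FDR 0.00181). TPTE2, a membrane-bound lipid phosphatase, had 3.01, 11.3, 8.73, 2.66 and 3.65 CPM in BF, against 0.525, 1.24 and 1.68 CPM in BM (log2 2.37, SE 0.42, FDR 0.00160). GYLTL1B, a glycosyltransferase that extends the sugar chain of dystroglycan, was more abundant, at 323, 642, 502, 349 and 676 CPM in BF, against 99.1, 142 and 289 CPM in BM (log2 1.55, SE 0.30, FDR 0.00203). Each of the 3 separated the sexes in full, with PKD2L1 near or below 1 CPM in BM. PCP4, a small modulator of calmodulin, was at 528, 647, 351, 248 and 350 CPM in BF, against 137, 162 and 232 CPM in BM (log2 1.29, SE 0.22, FDR 0.00123). PCP4 was 1 of the 4 genes still called without the males of 0.74 years (log2 1.49, FDR 0.00665).

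The smallest FDR belonged to SYNPO, an actin-binding protein of podocytes and dendritic spines. SYNPO had 15.3, 10.7, 12.9, 22 and 16.6 CPM in BF, against 35.4, 43.9 and 51.6 CPM in BM. A wide gap parted the sexes, and SYNPO was 2.80-fold lower (15.5 ± 4.29 CPM in BF and 43.4 ± 5.81 CPM in BM, SD, n = 5 and 6, log2 -1.48, SE 0.17, FDR 0.000136). It passed also with the read length covariate (log2 -1.30, FDR 0.00841) and without the younger males (log2 -1.40, FDR 0.00308). The semaphorin receptor PLXNA2 was at 7.4, 6.18, 6.61, 13.3 and 9.79 CPM in BF, against 20.2, 22.7 and 28.4 CPM in BM (log2 -1.40, SE 0.18, FDR 0.000936). Both were lower in the 50 nt females (log2 -1.74 and -1.76 over BM) than in the 51 nt females (-1.17 and -0.99). SHF, an adaptor protein with an SH2 domain, had 47.9, 51.9, 44.0, 66.3 and 65.0 CPM in BF, against 27.5, 31.3 and 44.5 CPM in BM (log2 0.73, SE 0.12, FDR 0.00123), and passed with the read length covariate (log2 0.88, FDR 0.00873).

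Among the largest decreases was NEURL1B, a ubiquitin ligase that acts on Notch ligands. It was at 0.463, 0.508, 0.393, 0.590 and 0.135 CPM in BF, against 1.15, 2.39 and 4.44 CPM in BM (log2 -2.58, SE 0.48, FDR 0.00181). CDYL2, a chromodomain protein, was at 0.694, 0.339, 0.629, 0.664 and 0.203 CPM in BF, against 1.25, 2.83 and 3.50 CPM in BM (log2 -2.30, SE 0.37, FDR 0.00123). Both genes were under 1 CPM in every female, and reached a group mean of 1 CPM only in the males. Their separation of the sexes thus follows in part from that limit and rests on few reads in BF. The same holds for SHISA3 and PCDHA13, given below. SHISA3, of a family whose founding member attenuates Wnt and FGF signals in frog, had the lowest log2 fold change, at 0.848, 0.339, 0.315, 0.738 and 0.338 CPM in BF, against 1.57, 2.90 and 8.92 CPM in BM (log2 -3.08, SE 0.77, FDR 0.00718). Its call was lost without BF 01, BF 02, BF 05, BF 15, BM 20, BM 21, BM 22 or BM 25 (FDR 0.0103 to 0.0234), and its FDR was 0.0913 with the read length covariate. In non-breeders its log2 difference was -2.97 (NF over NM), which did not pass the test (FDR 0.735).

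Clustered protocadherins, a family of cell adhesion proteins, were made a list after these values were seen. Counts of this list are therefore a description, beside 6.17% lower DEGs over all genes tested. Of 30 tested, 14 fell, 0 rose and 29 had values below 0 (median -1.13), and 5 (without BF 02 or BF 15) to 18 (without BF 14 or BM 16) fell without 1 breeder library. PCDHA13 had 0.771, 0.423, 0.787, 0.590 and 0.608 CPM in BF, against 1.42, 3.62 and 5.96 CPM in BM (log2 -2.48, SE 0.41, FDR 0.00123). PCDHGB4 (log2 -2.01), PCDHGA8 (-1.85), PCDHB8 (-1.58) and PCDHGB6 (-1.45) were also called in all 11 fits without 1 breeder library. These genes lie close together and are near-identical in part, and reads with several positions were discarded by the authors, so the values of single members are uncertain. Reads carried no strand, so a gene and an antisense partner could not be separated either.

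Markers of other cells in the gland were examined beside these groups. Of 9 tested parathyroid genes and 12 C cell genes 0 were called by edgeR (medians 0.21 and 0.03). These medians turned with the libraries, since they were -2.28 and -0.29 without BF 05, 0.68 and 0.44 in the 50 nt females over BM, and -1.54 and -0.94 in the 51 nt females over BM. With the muscle list as a covariate the parathyroid median was -2.18, and 3 of its genes were lower at an FDR below 0.05. Without the 3 libraries of high PTH, 1 gene was called and 1898 had an FDR below 0.05, and with PTH or GCM2 as a covariate 1379 or 1456 DEGs were called. Macrophage genes were on the lower side in all 15 tested (median -0.72), with 1 call, the scavenger receptor CD163, at 0.925, 1.19, 1.65, 1.40 and 1.49 CPM in BF, against 1.42, 4.72 and 9.46 CPM in BM (log2 -1.96, SE 0.48, FDR 0.00622). The summed level of the list was 187 to 252 CPM in BF, and 503 and 584 CPM in BM 25 and BM 21, against 174 to 243 CPM in the other BM. CD163 lost its call in 7 of the 11 fits, BM 21 and BM 25 left out among them (highest FDR 0.0205), and its FDR was 0.0522 with the read length covariate. Skeletal muscle genes had a median of 1.54 with 2 of 10 higher, NEB and TNNC2 (0 to 5 higher without 1 breeder library). NEB, a ruler of muscle thin filaments, was at 3.70, 4.40, 3.85, 0.812 and 0.946 CPM in BF, against 0.695, 0.876 and 1.18 CPM in BM (log2 1.62, SE 0.42, FDR 0.00910). The 3 females of 50 nt were high and the 2 of 51 nt lay among the males, where the log2 difference was -0.01. NEB was called in 2 of the 11 fits, without BF 14 or BF 15, and had an FDR of 0.824 with the read length covariate. The list's median was 2.07 in the 50 nt females over BM and 0.03 in the 51 nt females over BM. With the mean log2 level of the muscle list as a covariate 470 DEGs were called, and 1387 of the 1521 had an FDR below 0.05. Fibroblast and matrix genes had 0 of 20 called (median -0.37, 16 below 0). Pericyte and smooth muscle genes had 1 of 8 lower, PDGFRB (median -0.36, 8 below 0). Over BM, these 2 medians were -0.51 and -0.69 in the 50 nt females, and -0.05 and 0.08 in the 51 nt females. Nerve and Schwann cell genes had 0 of 9 called (median -0.35), and endothelial genes 1 of 15 lower, ERG (median -0.07). Adipocyte genes had 0 of 13 called (median 0.10). The part of these other cells, of muscle, of macrophages and of read length in the other differences was not tested beyond these fits.

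The females of 50 nt were also compared with those of 51 nt. Total counts differed too, at 11902191 to 13964459 against 14387271 to 15133258, as did ACTA1. BF 05, with high PTH, was among the females of 50 nt. Read length was therefore not isolated in this comparison. Between the 3 BF of 50 nt and the 2 BF of 51 nt, 0 of 13520 genes (0%) were called by edgeR, with 1472 at p below 0.05 and a smallest FDR of 0.0228. Over BM, the median log2 fold change of the higher DEGs was 0.63 in the females of 50 nt and 0.63 in those of 51 nt, and that of the lower DEGs -0.97 and -0.85. These values share the males and the females that chose the DEGs and are a description. In 1 fit of all libraries with the females split by read length, the 51 nt females over BM gave 2 DEGs, SHF and GCDH, and the 50 nt females over BM 837.

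The sexes were also compared in non-breeders. Between NF and NM 0 of 13520 genes (0%) were called by edgeR (657 at p below 0.05). The DEGs of breeders had the same sign in NF over NM in 1321 of 1521, with a median absolute log2 fold change of 0.14, beside 0.76 in the breeders that chose them. SLC5A5 averaged 353 ± 195 CPM in NF and 165 ± 80.1 CPM in NM (SD, n = 6 and 5). HSD17B1 averaged 20.7 ± 3.25 CPM in NF and 19.5 ± 4.57 CPM in NM, and FOSL2 13.5 ± 4.66 CPM in NF and 12.5 ± 4.57 CPM in NM. The interaction of sex and breeding status, which tests whether the sex difference of breeders differs from that of non-breeders, called 0 of 13520 genes (0%) with edgeR, 2320 at p below 0.05 (smallest FDR 0.158) and 17 with DESeq2, 4 above 0 and 13 below.

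The thyroid DEGs were mostly not called in other organs, which came from the same animals except that BF 12 was included in each and BM 20 was not in the pituitary set. BF against BM gave 468 DEGs in the adrenal gland (3.54% of genes tested), 60 in the pituitary (0.43%), 51 in the kidney (0.388%) and 38 in the liver (0.305%). In the heart 3 (0.0241%), and in the cerebellum (0.00741%), hypothalamus (0.00719%) and skin (0.0074%) 1 gene each was called by edgeR. Of the thyroid DEGs, 24 were also DEGs in the adrenal gland, which is 1.58% of the thyroid DEGs and 5.13% of the adrenal ones, and 9 of the 24 had the same direction. The pituitary shared 4, with 0 in the same direction, the liver 3 and the kidney 1, all in the same direction.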

How the data were processed

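RNA-seq of thyroids of GP breeders was analysed from the deposited raw counts, 1 column per animal, matched to animals by the labels. The authors sequenced unstranded poly(A) libraries (TruSeq RNA v2) single-end, aligned reads with STAR 2.4.1d to the genome cavPor3, discarded reads with several positions, and used HTSeq to count the remainder on gene models that carry human symbols. Read lengths of 50 or 51 nt are those the study lists. Sequences and coordinates were not used here. The thyroid of male non-breeder 19, excluded by the study as a wrong tissue, was left out.

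Counts of all 22 thyroid libraries were fitted in edgeR 4.0.16 (R 4.3.3) after filterByExpr (minimum count 10, minimum total 15) with TMM scaling and the robust quasi-likelihood F test. P-values were adjusted by Benjamini-Hochberg over all genes tested, and an FDR below 0.01 was called. The absolute log2 fold change over the square root of F gave its standard error. CPM are TMM-scaled. The other 8 tissues of both sexes were fitted alike. Gene lists are given by counts and medians without a test. Labels give each library a different animal, so the spread is that between animals. Other tools were limma 3.58.1, Python 3.11.15, pandas 2.3.3 and numpy 2.4.6.

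Members and lists were chosen with earlier results of these data known. Of 55 lists, 6 were composed after these values were seen. They were clustered protocadherins, LSM and SNRP proteins, nucleoporins, genes with UTP, NOP, NOL, RRP or POLR1 symbols, Hippo, and phosphatidylcholine and phosphatidylethanolamine synthesis. Genes named were the 12 highest and 12 lowest DEGs of at least 1 CPM with no overlap, the 10 of smallest p, all thyroid, parathyroid and C cell list members, and up to 6 members of smallest p of each other list. SHF, GCDH, NCOA3, NUP205 and other DEGs outside this rule were picked after their values were seen, as was the selection given in full. Some genes of the lists are not reported here. Alternatives were DESeq2 1.42.0, median-of-ratios and upper-quartile scaling, no filter, breeders alone, read length, age, PTH, GCM2 and muscle as covariates or by leaving libraries out, the excluded library, and each library left out. Without the 3 libraries of high PTH, females of 51 nt alone, and thinning to the lowest total (11902191 counts) were added after the data were seen. Steps were tested on simulated data.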

Additional observations from a re-analysis of the deposited data

Results flagged for a closer look

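In 282 groups of values (141 genes in BF and in BM) the highest or lowest library was compared with the others by Dixon's ratio, and 27 values, from 6 libraries, stood apart. Chance sets apart about 1 in 20 groups, and values of 1 library are not independent of each other.

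Values of BM 16 stood below the other BM, toward BF, for CREBBP (8.46 CPM, others 25.7 to 29.5), ARID1A (47.0, others 72.3 to 87.0), FOXO1 (9.37, others 19.7 to 25.5), BMPR2 (8.97, others 33.3 to 40.4), AMOTL1 (25.7, others 48.4 to 58.7), LIMD1 (17.1, others 26.3 to 31.8), STK4 (8.41, others 20.7 to 23.2), BAZ1B (44.4, others 67.3 to 80.0), NCOA3 (9.37, others 20.2 to 24.5) and SMC1A (35.8, others 66.5 to 80.3). BM 16 stood above the other BM for HHEX (218 CPM, others 136 to 163), TNNC2 (1.70, others 0.367 to 0.739) and SNRPN (18.2, others 11.2 to 13.1).

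BF 14 stood above the other BF, toward BM, for ANO1 (29.2 CPM, others 12.3 to 16.9), IGF1R (17.4, others 7.498 to 10.1), AMOTL1 (26.8, others 16.6 to 18.8), MAFK (26.4, others 9.14 to 13.7), PCDHGB6 (3.03, others 1.49 to 1.82), PCDHGB7 (2.88, others 0.593 to 1.08) and SMC1A (42.1, others 19.8 to 25.6), and away from BM for REEP6 (24.9, others 8.02 to 11.3).

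In BF 05 the parathyroid genes PTH (17453 CPM, others 3.32 to 5.502), GCM2 (399.6, others 0 to 0.148) and the calcium-sensing receptor CASR (138, others 7.29 to 15.5) were high. ACTA1 in BM 22 (8.6 CPM, others 2.14 to 4.03), HSPA1B in BM 24 (63.1, others 35.0 to 45.5) and PLXNA2 in BM 25 (28.4, others 20.2 to 22.9) were the other values set apart.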

How the results depend on the processing

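The number of DEGs between BF and BM depended on the setting. The direction turned in 1 of 127 DEGs examined, NEB, and in 8 of 14 genes examined that did not pass the test (ACTA1, CALCA, DIO1, GCM2, PAX8, PTH, SLC26A7 and TG). The settings share most libraries with the fit that chose the DEGs, so a kept direction is a description and no separate support. With DESeq2 2371 DEGs were found (1096 higher, 1275 lower), and with the breeder libraries fitted alone 533 (201 higher, 332 lower). With male non-breeder 19 added there were 405 (122 higher, 283 lower). That library is in neither group compared, but enters the spread, the filter on low counts and the scaling. No filter on low counts gave 445 higher DEGs. Size factors of DESeq2 and upper-quartile factors gave 1457 and 1456 DEGs, with 42.3% and 35.9% of them higher, beside 45.2% as reported. With read length as a covariate 2 were called (1 higher, 1 lower), without the libraries of 50 nt 0, with BF of 51 nt left out 962 (349 higher), with all libraries fitted and BF of 51 nt compared with BM 2 (2 higher, 0 lower), without the males of 0.74 years 4 (1 higher, 3 lower), with muscle as a covariate 470 (265 higher, 205 lower, 56.4% higher), and without the 3 libraries of high PTH 1 (0 higher, 1 lower). These settings leave out libraries, add a covariate or split a group, and the cause of the changed counts was not tested. Thinning all libraries to the lowest total gave 1423 DEGs, and PTH and GCM2 as covariates 1379 and 1456. Leaving out 1 library gave 365 to 2229 DEGs, 111 to 957 of them higher and 254 to 1272 lower, with the lowest counts without BF 02 and the highest without BM 16. Of 141 genes examined, 69 lost their call without BF 02 and 60 without BF 15. NEB turned its direction to a log2 fold change of -0.0101 without the libraries of 50 nt and to -0.00641 with BF of 51 nt compared alone. The interaction gave 0 genes with edgeR, also without the libraries of 50 nt, and 17 with DESeq2. BF of 50 nt against BF of 51 nt gave 0 genes without each BF in turn. No paired analysis was possible because BF and BM are different animals and their numbers name animals, not pairs.

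Depth was lower in every BF than in every BM, age and read length were not balanced between the sexes, and the 5 and 6 animals limit precision. Genes near 1 CPM rest on some 10 to 20 reads a library. Sex and depth cannot be told apart among the breeder libraries, and in those of 50 nt read length cannot be separated from them either.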
